A study of Mus musculus with 4 samples.

Results

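Mitosis and chromosome segregation genes were followed in early T lineage progenitors (ETP), thymocytes from which later T lineage stages arise, of young and old mice. The 54 genes were chosen by name and not by a filter on measured values, though earlier results of these data were known. All 54 had a row among the 23361 genes of the deposited table. They are the kinases and cyclins of mitotic entry, the condensin and kinetochore genes, the spindle checkpoint, the mitotic kinesins and the genes of cytokinesis. RNA-seq was done on ETP of female C57BL6 mice in 4 libraries, 2 from young mice of 4 to 6 weeks and 2 from old mice of 72 weeks, and the labels name no transgene, deletion or treatment. The sort gate for ETP was Lin- CD44+ CD25- CD117+. The table calls the old condition 20m and numbers the libraries of each age 0 and 1, here replicates 1 and 2, and nothing states which number is which sample. If 20m means 20 months, it is not the same age as the 72 weeks given for the old mice, and the difference is not explained. Whether separate animals stand behind the libraries of an age is not stated either, so a p-value here reflects no more than how far these libraries differ, and that may be technical.

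A cell that divides condenses its chromosomes, attaches them to a bipolar spindle through the kinetochores and separates the sister chromatids once a checkpoint has found every kinetochore attached. Most genes of this machinery are transcribed late in the cell cycle, so their transcripts are abundant in cycling cells and scarce in resting ones. ETP divide in the thymus before they commit to the T lineage. In RNA from a whole sorted population, fewer cycling cells and less RNA per cycling cell cannot be told apart.

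Depth was 16658864 fragments in young replicate 1, 6414915 in young replicate 2, 11816478 in old replicate 1 and 4839341 in old replicate 2. The gate gene *Kit*, which encodes CD117, was at 764 and 1096 in the young and at 936 and 945 in the old libraries, in normalized CPM (fragment counts relative to library size, scaled by TMM). *Il2ra*, which encodes CD25, was at 22.9 to 39.9, and *Ptcra*, a gene of later thymocytes, had 0 fragments in all 4 libraries. The 10 markers of DN2 and DN3 thymocytes to which both belong summed to 389 and 614 normalized CPM in the young and 499 and 966 in the old libraries, and of 5 tested 3 had higher estimates in old ETP, with 1 called by DESeq2. Among them *Cd3e*, a T cell receptor complex gene, was at 3.34 and 2.88 in the young against 11.2 and 36.2 in the old libraries. The 15 markers of ETP identity summed to 5564 to 7597. Markers of other cells were not absent. Conventional dendritic cell markers had higher estimates in old ETP for 16 of 17 tested, and their summed level was 1465 and 2105 normalized CPM in the young against 8588 and 25341 in old replicates 1 and 2. Of 10 tested markers of NK and innate lymphoid cells 8 were higher, with sums over the 16 markers of 299 and 383 in young against 466 and 856 in old ETP. None of the 17 or the 16 markers was at 0 in every library. Markers of B lineage, stromal and erythroid cells summed to at most 41.6, 530.0 and 17.9, those of plasmacytoid dendritic cells to 659 to 1026, and those of monocytes, macrophages and granulocytes to 806 to 2097 with the highest sum in young replicate 1. Single genes carried large parts of some sums. In the plasmacytoid list *Runx2* was at 388 to 566 and *Siglech* at 0.249 to 9.37. In the monocyte list *Mpo* was at 437 to 1716 and *C1qa* at 0. In the stromal list *Pdgfrb* was at 184 to 346 and *Foxn1* at 0, and in the NK list *Nkg7* was at 158 to 231. Such sums do not by themselves tell which cells were present. The nuclear RNA *Malat1* took 0.475% and 0.895% of fragments in the young libraries and 0.983% and 1.6% in the old. The part of these differences in the results for mitosis genes was not tested.

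The mitosis genes were expressed in every library. Fragments per gene ran from 26 for *Cdc25b* to 16757 for *Mki67*, and all 54 passed the filter for testing (2 or more libraries with an FPKM of 1 or above), 51 of them with an FPKM of at least 1 in all 4. Together they took 0.586% of all fragments in young replicate 1, 0.404% in young replicate 2, 0.325% in old replicate 1 and 0.412% in old replicate 2. The share was thus highest in young replicate 1, and that of old replicate 2 lay above that of young replicate 2, so the ages overlapped. Per transcript length, in TPM (the authors' FPKM rescaled so that every library has the same sum), the mean over 4 libraries ran from 4.99 for *Cdc25b* to 179 for *Top2a*. Condensation genes stood at the top with *Top2a*, *Mki67* (155) and *Smc4* (129), followed by *Ccnb2* (94.8), *Cenpa* (84.5) and *Bub3* (81.8). The order among neighbours did not hold in each library, since *Smc4* was at 85.7 and 205 TPM in the young and 34.1 and 191 in the old libraries, a wider range than the distance to *Ccnb2* at 82.5 to 109.

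**Figure D1:**
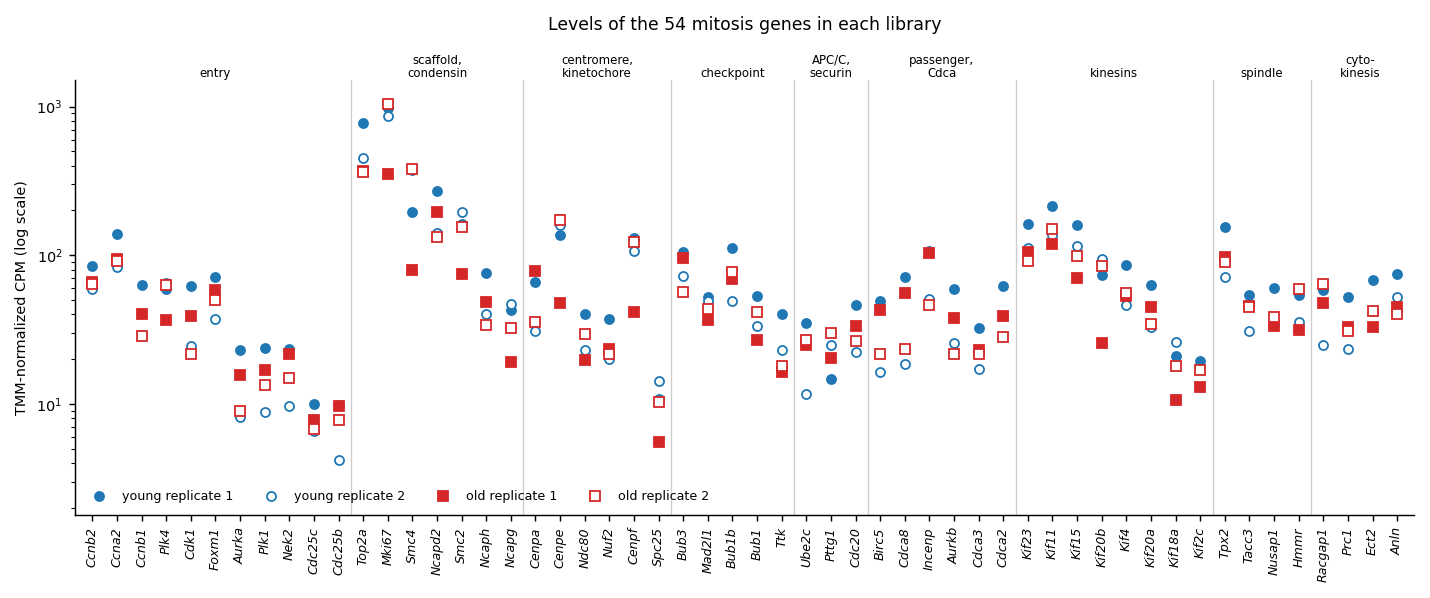
Level of each of the 54 mitosis genes in the 4 libraries, in TMM-normalized CPM on a log scale, with circles for young and squares for old ETP and filled symbols for replicate 1. Genes are grouped by role and ordered by TPM within a role. Young replicate 1 is the highest point for 41 genes, and the ages overlap for 42.

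The question of the comparison was how gene expression in ETP differs between young and old mice. Of the 54 genes, 45 had a lower estimate in old than in young ETP and the median log2 fold change was -0.32, beside 53.4% of the 10080 tested genes with a lower estimate and a median of -0.033. In edgeR (quasi-likelihood test) none passed in either direction (0 of 54, adjusted p from 0.977 to 0.999 after Benjamini-Hochberg adjustment over all tested genes), where the background of calls was also 0%. At an unadjusted p under 0.05 the count was 0 of 54 as well, against 0.913% of tested genes lower and 4.65% higher in old ETP, and DESeq2 called 0 of 54 against 0.149% lower and 2.08% higher. The median fold change was smaller in size than the median standard error of 0.41. Some single fold changes were larger than their errors, among them *Ttk* (-0.88, standard error 0.39), *Ncapg* (-0.82, 0.36), *Top2a* (-0.74, 0.35) and *Kif15* (-0.70, 0.32). Log2 fold changes ran from -0.88 for *Ttk* to 0.42 for *Racgap1*, with standard errors of 0.27 to 0.74. In a fit with a term for the replicate number, edgeR called 3 of 54 lower (*Top2a*, *Smc2* and *Ncapg*) and 0 higher, beside 1.97% and 5.73% of tested genes, and with the length and GC trend described further on removed as well it called 0 of 54 in either direction, beside 0.274% and 2.55%. In 41 of the 54 genes the young libraries differed from each other by more than the ages did, and in 33 the old libraries did. No share of all tested genes is given for these counts. A difference between 2 single libraries varies more than one between means of 2 libraries, so these counts alone are no result about the mitosis genes. Both young libraries lay above both old libraries for 12 of 54 genes, beside 15.5% of tested genes, and both old above both young for 0 of 54, beside 16.1%. The 12 were *Anln*, *Cdca2*, *Ect2*, *Kif15*, *Kif18a*, *Kif23*, *Mad2l1*, *Ncapg*, *Smc2*, *Spc25*, *Top2a* and *Ttk*. These 12 and *Kif11* were also the 13 genes whose estimate stayed below 0 when any single library was left out. For the 12 this follows from the ages lying apart and is no separate support. The share of all tested genes that keep their sign in this way is not given here. For 1 gene, exact two-sided permutation of 2 against 2 libraries gives no p under 0.33.

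For the group as a whole, the lower estimates rested on young replicate 1. This library held the highest level of 41 of the 54 genes, beside 20.2% of tested genes. Against young replicate 2, from the same age, the mitosis genes were at a median log2 difference of -0.80, with 45 of 54 lower in young replicate 2 beside 46.8% of tested genes and a median over all tested genes of 0.045. Against old replicate 1, young replicate 1 was higher for 52 of 54 (median difference -0.66 from young to old, beside 49.7% of tested genes lower), and against old replicate 2 for 46 of 54 (median -0.61, beside 51.4%). The other young library gave another picture. Old replicate 2 was below young replicate 2 for 21 of 54 genes (median 0.12, beside 55.8%), and old replicate 1 was below it for 25 of 54 (median 0.17, beside 49.4%). Without young replicate 1, 20 of the 54 genes had a lower estimate in old ETP and the median turned to 0.15, beside 50.5% of tested genes. Without young replicate 2 the median was -0.61 and 52 genes were lower (beside 49.5% of tested genes), without old replicate 1 it was -0.27 with 41 lower (beside 52.4%), and without old replicate 2 it was -0.30 with 42 lower (beside 52.7%). Old was below young for 21 of 54 genes in both pairs of libraries of equal number, beside 36.3% of tested genes.

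**Figure D2:**
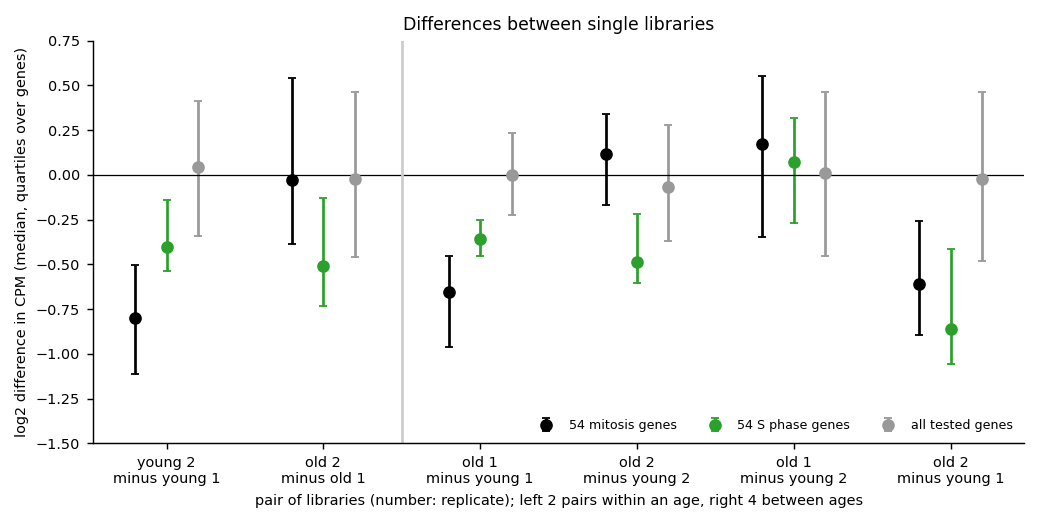
Median log2 difference in normalized CPM between single libraries (bars, quartiles over genes) for the 54 mitosis genes, the 54 S phase genes and all tested genes. The mitosis genes fall below 0 in each pair that holds young replicate 1 (medians -0.80, -0.66 and -0.61) and lie between -0.03 and 0.17 in the others, and S phase genes are also below 0 between the replicates numbered 2 (-0.49).

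The promoters of these genes are given here because these genes share sequence features that their choice did not use. Many genes of late cell cycle expression carry the cell cycle genes homology region (CHR), with the letters TTTGAA, beside CCAAT boxes, which the factor NF-Y binds, while the E2F motif is typical of genes expressed at the start of S phase. Of the 54 genes, 45 matched the RefSeq promoter table (GRCm38.p6), whose windows run from 250 bases before to 50 bases after the start of transcription, and the first window listed per gene was searched on both strands. TTTGAA was found in 31 of 45 windows (68.9%), against 18.1% of 27025 promoters of the same length, 13.6% of 44 S phase promoters and 34.1% of 85 promoters of other mitosis genes. A CCAAT was in 31 of 45 (68.9%, against 37.9% of all promoters, 59.1% of S phase promoters and 61.2% of those of other mitosis genes), and TTTGAA together with at least 2 CCAAT in 18 of 45 (40%, against 2.19% of all, 4.55% of S phase and 14.1% of other mitosis promoters). An E2F motif (TTTCCCGC, TTTCGCGC, TTTGCCGC or TTTGGCGC) was in 5 of 45 (11.1%), namely *Cdk1*, *Kif15*, *Kif18a*, *Ncapd2* and *Ncapg*, against 31.8% of S phase, 12.9% of other mitosis and 2.32% of all promoters. Among 7601 promoters of tested genes TTTGAA was in 11.9%, CCAAT in 39.5% and TTTGAA with at least 2 CCAAT in 1.97%. The E2F motif was in 4.62% of them, a higher share than over all promoters. None of these motifs contains another. A match is a run of letters, not a tested site. The 31 genes with TTTGAA had a median log2 fold change of -0.34 and the 14 without it also -0.34, with medians between the young libraries of -0.80 in both groups.

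Printed below are the 200 bases before the start for 5 genes of the named set whose stretch held both motifs and no annotated exon, 5′ to 3′ on the gene's strand. Capitals mark TTTGAA and CCAAT or their reverse complements TTCAAA and ATTGG. They cover chr11:99024190-99024389 (minus strand) for *Top2a*, chr7:135716380-135716579 (minus) for *Mki67*, chr4:52439021-52439220 (plus) for *Smc2*, chr9:70421555-70421754 (minus) for *Ccnb2* and chr19:37376182-37376381 (plus) for *Kif11*.
Top2a: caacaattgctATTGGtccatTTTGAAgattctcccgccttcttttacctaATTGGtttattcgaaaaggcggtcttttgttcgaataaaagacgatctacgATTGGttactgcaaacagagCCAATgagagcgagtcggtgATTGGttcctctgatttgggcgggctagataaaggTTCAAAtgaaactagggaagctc
Mki67: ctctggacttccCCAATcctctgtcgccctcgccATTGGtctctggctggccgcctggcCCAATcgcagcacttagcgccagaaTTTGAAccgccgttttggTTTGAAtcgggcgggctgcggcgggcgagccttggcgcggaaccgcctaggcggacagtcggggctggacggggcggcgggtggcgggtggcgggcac
Smc2: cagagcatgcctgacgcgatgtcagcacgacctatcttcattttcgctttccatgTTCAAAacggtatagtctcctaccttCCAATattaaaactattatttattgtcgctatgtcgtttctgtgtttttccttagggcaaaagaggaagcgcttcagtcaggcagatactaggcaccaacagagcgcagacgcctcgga
Ccnb2: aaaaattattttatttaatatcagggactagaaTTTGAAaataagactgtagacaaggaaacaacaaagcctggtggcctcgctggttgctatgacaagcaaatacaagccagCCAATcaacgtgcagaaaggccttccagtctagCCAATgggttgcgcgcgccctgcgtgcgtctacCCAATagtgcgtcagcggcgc
Kif11: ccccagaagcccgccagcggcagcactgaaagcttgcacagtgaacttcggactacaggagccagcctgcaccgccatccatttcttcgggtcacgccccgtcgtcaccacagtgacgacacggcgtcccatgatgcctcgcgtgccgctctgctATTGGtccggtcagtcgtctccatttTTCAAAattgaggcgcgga
*Top2a* held 2 CHR and 5 CCAAT matches in this stretch and *Mki67* 2 and 3. In *Kif11* the CHR match began 19 bases before the start, with a CCAAT match beginning 45 bases before it.

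Genes of the chromosome scaffold and condensin were lower in old ETP by estimate for 7 of 7, with the lowest median of the 9 roles (-0.51, and -0.31 without young replicate 1). *Top2a* encodes the topoisomerase that untangles replicated chromatids and was at 779.5 and 448 normalized CPM in young and 370.0 and 363 in old ETP. Both young libraries lay above both old ones, with a log2 fold change of -0.74 (standard error 0.35), although the young libraries differed 1.74 times from each other. *Mki67*, the proliferation marker whose product coats mitotic chromosomes, was at 981 and 868 normalized CPM in young and 353 and 1045 in old ETP. Old replicate 1 alone was low, and old replicate 2 was the highest of all 4. The condensin ring genes *Smc2* and *Smc4* shared this low level in old replicate 1, with *Smc2* at 163, 195, 74.3 and 156 and *Smc4* at 196, 374, 79.8 and 378 normalized CPM in young replicates 1 and 2 and old replicates 1 and 2, the order used from here on. For *Smc4* the old libraries differed 4.74 times from each other, the widest within-age ratio among the old libraries for these genes, and without old replicate 1 its log2 fold change turned from -0.32 to 0.46. *Ncapg*, which encodes a condensin I subunit, was at 43.1, 46.9, 19.2 and 32.2 with the ages apart, and its log2 fold change of -0.82 (standard error 0.36) had the smallest p of the 54 (unadjusted p = 0.067, adjusted p = 0.977 in edgeR). Its condensin I partners *Ncapd2* (269, 141, 197 and 133) and *Ncaph* (76.1, 40.5, 48.1 and 33.8) were instead highest in young replicate 1 and second highest in old replicate 1. The 5 condensin genes thus did not vary together across the libraries.

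For mitotic entry, 8 of 11 genes were lower by estimate in old ETP, and the median of -0.19 turned to 0.33 without young replicate 1, when 1 of 11 was lower. *Cdk1*, the kinase that drives cells into mitosis, was at 61.6 and 24.3 normalized CPM in young and 39.2 and 21.8 in old ETP. Both ages held a high and a low library, 2.53 times apart in young ETP, so the log2 fold change of -0.49 (standard error 0.54) was within the spread of the replicates. Its cyclin partner *Ccnb1* was at 62.96, 28.99, 40.3 and 28.8, with young replicate 2 and old replicate 2 nearly equal and old replicate 1 above both. *Ccnb2*, the most abundant of the entry genes per length, was at 84.2, 59.4, 65.8 and 64.1 and *Ccna2*, the cyclin of S and G2 phase, at 138, 83.9, 93.8 and 91.7, and in both the old libraries fell between the young ones. *Cdc25b*, a phosphatase that activates Cdk1, had the largest positive estimate of the entry genes (log2 fold change 0.31, standard error 0.53) at 9.77, 4.16, 9.64 and 7.84, again with both old libraries between the young ones. The polo-like kinase gene *Plk1* (23.9, 8.81, 16.8 and 13.3) and *Aurka*, which encodes the centrosomal Aurora kinase (23.00, 8.17, 15.7 and 8.93), showed the same order of young replicate 1 first and young replicate 2 last. So did *Nek2*, a centrosome kinase gene (23.3, 9.61, 21.5 and 14.8), and *Foxm1*, which encodes an activator of late cell cycle genes (71.3, 37.2, 58.8 and 50.3). *Foxm1* was at 0.005 on the log2 scale (standard error 0.38), the estimate nearest to 0 but for *Hmmr*, and its sign changed with the scaling. *Plk4*, the kinase of centriole duplication, differed from the other kinases with its lowest level in old replicate 1 (59.6, 65.03, 36.7 and 62.96), and *Cdc25c*, another Cdk1 phosphatase gene, stayed at 6.57 to 10.01.

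At the centromere and kinetochore, 5 of 6 genes had lower estimates in old ETP (median -0.41, and -0.15 with 3 of 6 lower without young replicate 1). *Cenpe*, which encodes a kinetochore motor, was at 138 and 161 normalized CPM in young and 47.4 and 173 in old ETP. Old replicate 1 was the only low library, 3.65 times below old replicate 2, and *Cenpf*, a large kinetochore protein gene, had the same shape at 131, 107, 41.6 and 122. Without old replicate 1 both estimates turned, from -0.44 to 0.25 and from -0.54 to 0.076. *Cenpa*, the histone H3 variant that marks the centromere, was the exception with a positive estimate (0.22, standard error 0.53) at 66.5, 31.1, 78.1 and 35.7. In both ages its replicate 1 was the higher library by more than 2 times, and the ages overlapped. The Ndc80 complex binds microtubules, and its 3 members on the list were *Ndc80* (40.1, 23.1, 19.6 and 29.4), *Nuf2* (37.04, 20.2, 23.3 and 21.6) and *Spc25* (10.8, 14.3, 5.57 and 10.2). *Spc25* alone of the 3 kept the ages apart, with a change of -0.68 on the log2 scale (standard error 0.46).

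**Figure D3:**
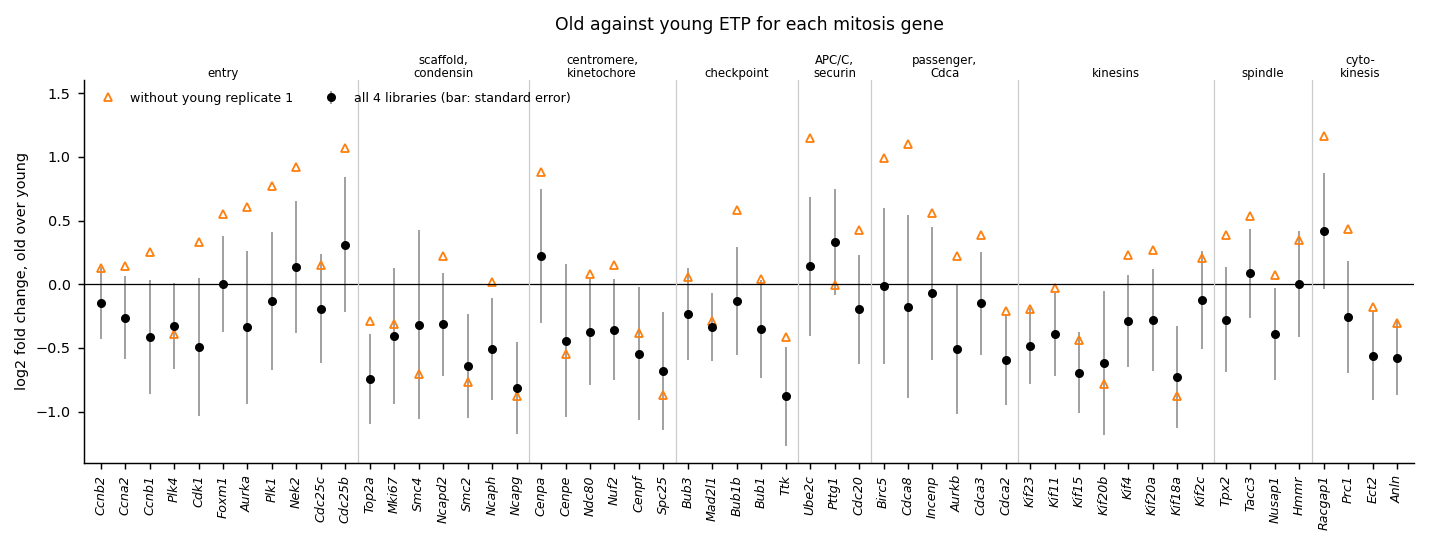
Log2 fold change from young to old ETP for each mitosis gene from edgeR with all 4 libraries (black, bars are standard errors) and without young replicate 1 (orange triangles). The estimates run from -0.88 for *Ttk* to 0.42 for *Racgap1*, and 27 of the 54 change sign without young replicate 1. The share of all tested genes that change sign is not given.

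The spindle checkpoint holds back anaphase until every kinetochore is attached, and 5 of 5 of its genes had lower estimates in old ETP (median -0.34, turning to 0.040 with 2 of 5 lower without young replicate 1). *Ttk*, the kinase at the start of checkpoint signalling, had the largest estimate of all 54 genes in either direction. It was at 40.1 and 22.9 normalized CPM in young and 16.3 and 18.1 in old ETP, with 31.5 ± 12.1 in young and 17.2 ± 1.26 in old ETP (SD, n = 2), and a log2 fold change of -0.88 (standard error 0.39, unadjusted p = 0.069, adjusted p = 0.977 in edgeR). The old libraries were close to each other and below both young ones, and the estimate ran from -1.22 to -0.42 with a library left out. *Mad2l1*, which encodes the Cdc20 inhibitor of the checkpoint, also kept the ages apart at 52.2, 49.01, 36.7 and 43.6, with the smallest standard error of the 54 (0.27) and a log2 fold change of -0.34. *Bub3*, the most abundant checkpoint gene per length, was at 106, 73.04, 95.2 and 56.6, where old replicate 1 lay above young replicate 2. The kinase gene *Bub1* (53.4, 33.2, 27.02 and 41.4) and *Bub1b*, which encodes BubR1 (111, 48.9, 69.3 and 77.1), had their highest level in young replicate 1, and old replicate 2 above old replicate 1.

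Once the checkpoint is satisfied, the anaphase promoting complex marks securin and the mitotic cyclins for degradation, and here 1 of 3 genes had a lower estimate in old ETP. *Cdc20*, the activator of the complex, was at 46.3, 22.4, 33.5 and 26.6, and *Ube2c*, its ubiquitin-conjugating enzyme, at 34.9, 11.7, 24.8 and 27.01. For both the old libraries fell between the young ones, which were 2.98 times apart for *Ube2c*. *Pttg1* encodes securin, the inhibitor of separase, and was at 14.7 and 24.99 normalized CPM in young and 20.2 and 29.8 in old ETP. It was the only one of the 54 genes that was lowest in young replicate 1, with a log2 fold change of 0.33 (standard error 0.42) that became -0.003 without that library.

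The chromosomal passenger complex corrects wrong attachments and later marks the division plane, and its 4 genes, with *Cdca2* and *Cdca3*, all had lower estimates in old ETP (6 of 6, median -0.16, and 0.47 with 1 of 6 lower without young replicate 1). From replicate 1 to replicate 2 their median log2 difference was -1.14 in young and -0.90 in old ETP, larger than that between the ages. *Cdca8*, which encodes borealin, was at 71.1 and 18.6 normalized CPM in young and 56.03 and 23.3 in old ETP, a difference of 3.83 times between the young libraries, the widest within-age ratio between young libraries. *Birc5*, which encodes survivin, was at 48.98, 16.3, 43.1 and 21.6 and *Incenp*, the scaffold of the complex, at 107, 51.1, 104 and 46.4, so that old replicate 1 matched young replicate 1 and old replicate 2 matched young replicate 2 more closely than libraries of an age matched each other. *Aurkb*, the kinase of the complex, was also higher in replicate 1 than in replicate 2 of each age (59.3, 25.6, 37.7 and 21.8). Log2 fold changes were -0.18 for *Cdca8*, -0.07 for *Incenp* and -0.51 for *Aurkb* (standard errors 0.72, 0.52 and 0.51), and that of *Birc5* was -0.016 and changed sign with the scale. *Cdca2*, which encodes a chromatin-bound partner of a phosphatase, kept the ages apart by a small margin (62.1, 38.8, 38.7 and 28.1), while *Cdca3* did not (32.2, 17.1, 22.9 and 21.8).

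Kinesins move chromosomes and slide spindle microtubules, and 8 of 8 had lower estimates in old ETP (median -0.44, and -0.11 with 5 of 8 lower without young replicate 1). *Kif11*, the motor that pushes the spindle poles apart, was at 215 and 137 normalized CPM in young and 119 and 149 in old ETP, where old replicate 2 lay above young replicate 2. *Kif15*, which can act beside it, kept the ages apart at 160.3, 115, 70.7 and 99.6 (log2 fold change -0.70, standard error 0.32). *Kif18a*, which dampens chromosome movement at the metaphase plate, did so too (20.9, 25.9, 10.6 and 17.9, log2 fold change -0.73, standard error 0.40). For cytokinesis the central spindle motor *Kif23* was at 162, 112, 104 and 91.7, with both young above both old libraries, and *Kif20a*, which carries the passenger complex to the midzone, at 63.3, 33.00, 45.1 and 34.2, with the ages overlapping. *Kif20b* had the shape of *Cenpe*, with old replicate 1 alone low (73.5, 93.7, 25.7 and 84.1), and the log2 fold change turned from -0.62 to 0.052 without it. The chromokinesin *Kif4* (86.3, 46.5, 52.8 and 55.99) and the microtubule depolymerase *Kif2c* (19.4, 12.97, 12.97 and 16.99) were highest in young replicate 1.

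Of the spindle assembly genes 2 of 4 were lower by estimate in old ETP (median -0.14, and 0.37 with 0 of 4 lower without young replicate 1). *Tpx2*, which activates Aurora A on the spindle, was at 155, 71.4, 97.3 and 89.5 and *Nusap1*, a microtubule-bundling gene, at 59.9, 34.1, 33.6 and 38.3. *Tacc3*, which stabilises kinetochore fibres, was at 53.6, 31.1, 45.3 and 44.9, and *Hmmr*, which encodes a spindle-bound hyaluronan receptor, at 54.3, 35.4, 31.4 and 59.04 with a log2 fold change of 0.0025 (standard error 0.42). In all 4 the ages overlapped. Of the central spindle and cytokinesis genes 3 of 4 had lower estimates (median -0.41, turning to 0.13 with 2 of 4 lower without young replicate 1). *Anln*, the contractile ring protein anillin, was at 74.4, 52.5, 45.1 and 40.1 and *Ect2*, the activator of the GTPase that contracts the ring, at 68.1, 42.4, 33.00 and 42.05, both with the young above the old libraries, for *Ect2* by a small margin. *Prc1*, which bundles the central spindle, was at 52.2, 23.5, 32.8 and 30.9. *Racgap1*, the partner of *Kif23* in the centralspindlin complex, had the largest positive estimate of the 54 at 58.2 and 24.99 normalized CPM in young and 47.5 and 64.5 in old ETP (log2 fold change 0.42, standard error 0.46). Young replicate 2 was its only low library, and without young replicate 2 the estimate was -0.059. *Racgap1* and *Kif23* thus had estimates of opposite sign in these libraries, and neither passed the test.

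Across the 54 genes the difference between libraries of an age went with the base composition of the transcript. GC content, taken from the longest GENCODE transcript of each gene, ran from 34.8% to 56.0%. Over the 54 genes the log2 difference from replicate 1 to replicate 2 had a Pearson correlation with GC content of -0.62 in young and -0.60 in old ETP, and over the 9489 tested genes with a known sequence of -0.38 and -0.40. For the log2 fold change from young to old the correlation with GC content was 0.56 over the 54 genes and 0.17 over the 9489. These are correlations across genes of the same libraries, which are not independent replicates, and no test was made. The 18 genes of lowest GC content (34.8% to 43.0%) had a median log2 fold change of -0.42 with 17 of 18 lower in old ETP, the next 18 of -0.28 with 16 lower, and the 18 of highest GC content (48.4% to 56.0%) of -0.13 with 12 lower. Between the old libraries the medians were 0.68, -0.15 and -0.34 in the same order, so that by median the genes of lowest GC content, *Smc4*, *Cenpe* and *Kif20b* among them, were higher in old replicate 2 and the others lower. Values of all tested genes in these ranges of GC content are not given here. The trend of each library with transcript length and GC content was then taken out, a step added after the data were seen. With the trend removed, 45 of the 54 genes still had a lower estimate in old ETP, beside 48.9% of tested genes. Their median was -0.25, and 0 passed edgeR. On that scale young replicate 1 was the highest library for 49 of 54 genes, beside 22.3% of tested genes, and young replicate 2 the lowest for 29, beside 24.0%. The median mitosis gene was at 65.7 CPM in young replicate 1, 33.0 in young replicate 2, 45.6 in old replicate 1 and 38.3 in old replicate 2, with both old libraries between the young ones.

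**Figure D4:**
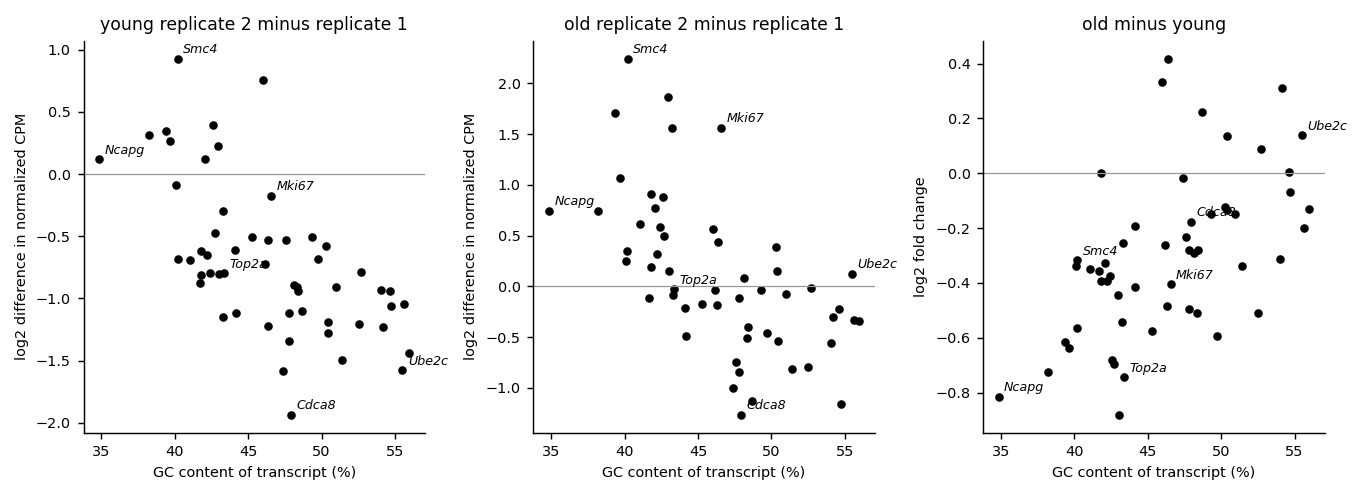
Log2 difference in normalized CPM between the replicates of each age (left and middle) and log2 fold change from young to old (right) against the GC content of the transcript for the 54 mitosis genes. Differences from replicate 1 to replicate 2 fall with GC content in both ages (Pearson correlation -0.62 and -0.60), and the vertical scales differ between panels.

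Other genes of mitosis, from a list of 111 symbols with 108 tested, were also mostly lower by estimate. Of the 108, 78 had lower estimates in old ETP (median -0.22), against 52 of 108 and a median of 0.015 without young replicate 1. Of the 108, 0 passed edgeR or DESeq2 in either direction, and 1 was lower at an unadjusted p under 0.05. That gene was *Smc3*, a cohesin ring subunit, at 565 and 628 normalized CPM in young and 279 and 412 in old ETP (log2 fold change -0.79, standard error 0.31, adjusted p = 0.886 in edgeR). Genes of S phase, when DNA is replicated, were low in another library. Of 54 tested, 52 had lower estimates (median -0.37) and 0 passed edgeR or DESeq2. They were highest in young replicate 1 for 43 of 54, as the mitosis genes were for 41 of 54, but lowest in old replicate 2 for 38 of 54, where the mitosis genes were lowest for 11 of 54, beside 31.5% of tested genes. From young replicate 2 to old replicate 2 the S phase genes were lower for 46 of 54 (median -0.49, beside 55.8% of tested genes) while the mitosis genes had a median of 0.12. From young replicate 2 to old replicate 1 the S phase genes were lower for only 24 of 54 (median 0.072, beside 49.4%). Without young replicate 1 the S phase genes kept a negative median of -0.15 with 37 of 54 lower, beside 50.5% of tested genes. Their level in old replicate 2 was below that in old replicate 1 for 42 of 54 (median -0.51, beside 51.2%). Whether the lists differ in their change with age was not tested.

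**Figure D5:**
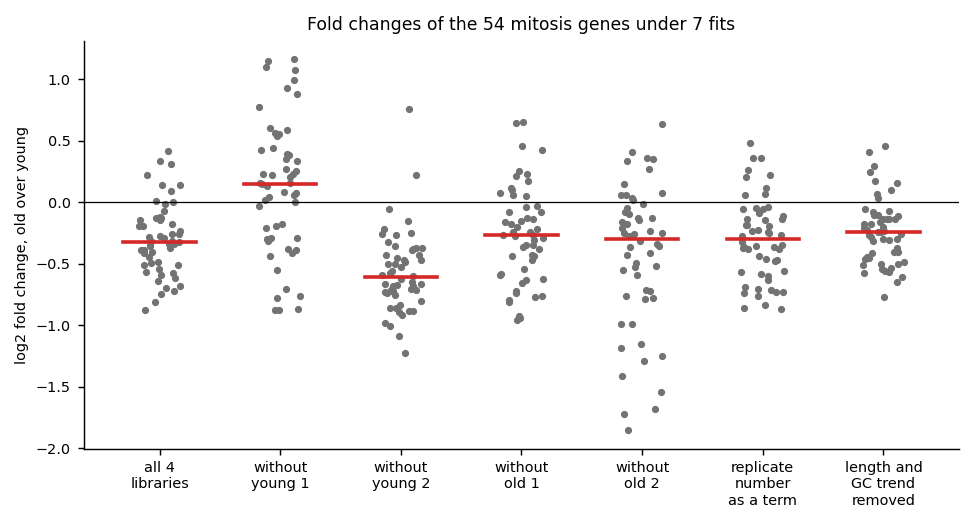
Log2 fold changes of the 54 mitosis genes (points) and their median (red line) with all 4 libraries, with each library left out, with the replicate number as a term and with the length and GC trend removed. The median lies between -0.61 and -0.25 in every fit shown but that without young replicate 1, where it is 0.15.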

How the data were processed

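RNA of sorted ETP was measured in 4 libraries, 2 per age (Nugen Ovation RNA-Seq System). The authors aligned reads with STAR 2.3.0 to GRCm38 (mm10). Per the submitters' processing notes HTSeq 0.5.4p3, DESeq 1.12.1, Cuffdiff and Cufflinks 2.1.1 were used. The paper gives a different version of DESeq. The authors' deposited table, in the layout of Cuffdiff output per replicate, holds estimated counts of fragments per gene (95.7% to 96.1% whole within 1e-06) and FPKM, which the authors scaled by transcript length and which sum to 122998 to 281542 per library. Scaled fragments in the table were not used. Use of strand and treatment of multiply aligned reads are not given in the sources used here, and 18 of the 54 genes overlap exons of a further annotated gene and 3 have a named pseudogene.

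Estimated counts were rounded, normalized by TMM and compared with edgeR 4.0.16 in R 4.3.3 (quasi-likelihood test with age alone, Benjamini-Hochberg, threshold 0.05) over the 10080 genes that reached an FPKM of 1 in 2 or more libraries. Standard errors given with edgeR estimates were derived as the absolute log2 fold change divided by the square root of the test's F statistic. Levels are normalized CPM within a gene and TPM between genes. The limit behind a count of 0 is 3 counts (0.176 to 0.654 normalized CPM) and covers counting error only, since PCR copies are not independent molecules. Replicates were further apart than sampling noise (chi-square per gene 57.5 and 68.4). On simulated counts for 10080 genes of this comparison, with the spread of these libraries, the fit recovered 57% of changes of a log2 of 2 and 99% of those of 4, with 7 false calls. Simulated libraries varied independently, whereas the real libraries of equal number deviated together (correlation 0.73), so these shares may not hold for the real data. There the fit called 0 of 10080 genes, although *H2-Eb1* (4.12) and *Ncr1* (5.67) had estimates above a log2 of 4. Changes of the size of the mitosis genes were not simulated. Members and lists were chosen with earlier results of these data known. By rule all members could be named, with full values for the 2 of highest TPM per role, the 5 largest changes per direction, the 5 smallest p and any call, and of the other lists at most the 3 genes of smallest p. Alternatives were DESeq2 1.42.0, other scalings and filters, limma 3.58.1 on log2 values (FPKM or TPM with a pseudocount of 1, or FPKM with 0.1), the replicate number as a term, leaving out each library and, added after the data were seen, an offset for transcript length and GC content (loess, span 0.3). Where leaving out a library leaves 1 in an age, its spread is taken from the other age.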

Additional observations from a re-analysis of the deposited data

How the results depend on the processing

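The number of the 54 mitosis genes with a lower estimate in old ETP stayed at 41 to 52 and their median log2 fold change at -0.61 to -0.20 in all fits run but that without young replicate 1. In these fits the share of all tested genes with a lower estimate ran from 48.9% with the length and GC offset to 79.8% on log2 FPKM. On that FPKM scale, with a pseudocount of 1, 50 of the 54 mitosis genes were lower. With a library left out the count ran from 20 to 52 and the median from -0.61 to 0.15, with 20 and 0.15 as the values without young replicate 1. Counts of calls moved with the fit. No mitosis gene was called in edgeR, DESeq2, limma or any fit without a library, and with the replicate number as a term (the replicate block) 3 were called lower, *Top2a* (log2 fold change -0.69), *Smc2* (-0.73) and *Ncapg* (-0.87), beside 1.97% of tested genes called lower. With the length and GC trend also removed, the block called 0 of the 54. Over all tested genes edgeR called 0 higher and 0 lower, DESeq2 210 and 15, edgeR without a filter 474 and 34, the block 578 and 199, the block with the length and GC trend removed 242 and 26, and fits with a library left out 0 to 218 and 0 to 3. The block also called 7 other mitosis genes lower (*Smc1a*, *Smc3*, *Stag2*, *Pds5a*, *Pds5b*, *Ckap5* and *Haus3*, named after their values were seen) and 6 S phase genes, and with the length and GC trend removed as well it called 0 of either list. Libraries of equal number deviated together (correlation 0.73 over 10080 genes), but nothing in the labels or the paper says that they share an animal, batch or day. On the authors' FPKM scale the median of all genes shifted to -0.27, with the mitosis genes at -0.50. Estimates of the other sign were those of *Birc5* (0.053 on log2 TPM, 0.069 with the block, 0.034 with the length and GC trend removed and 0.13 with both), *Foxm1* (-0.042 with upper-quartile factors, -0.015 without a filter, -0.0043 with at least 10 fragments in every library, -0.19 and -0.21 on log2 FPKM, -0.055 with the trend removed and -0.016 with the block as well), *Hmmr* (-0.061, -0.028 and -0.014 under the first 3 of these, -0.27 and -0.31 on log2 FPKM, -0.092 on log2 TPM and -0.058 with the block), *Cenpa* (-0.074 and -0.078), *Nek2* (-0.073 and -0.045) and *Tacc3* (-0.14 and -0.15), the last 3 on log2 FPKM. With a library left out, 41 genes changed sign, with ranges of -0.89 to 0.60 for *Aurka*, -0.99 to 0.22 for *Aurkb*, -0.59 to 0.99 for *Birc5*, -0.72 to 0.0404 for *Bub1*, -0.60 to 0.58 for *Bub1b*, -0.62 to 0.059 for *Bub3*, -0.58 to 0.14 for *Ccna2*, -0.86 to 0.26 for *Ccnb1*, -0.38 to 0.13 for *Ccnb2*, -0.62 to 0.42 for *Cdc20*, -0.15 to 1.07 for *Cdc25b*, -0.45 to 0.15 for *Cdc25c*, -0.53 to 0.38 for *Cdca3*, -0.93 to 1.10 for *Cdca8*, -1.01 to 0.33 for *Cdk1*, -0.43 to 0.88 for *Cenpa*, -1.68 to 0.25 for *Cenpe*, -1.55 to 0.076 for *Cenpf*, -0.39 to 0.55 for *Foxm1*, -0.55 to 0.43 for *Hmmr*, -0.74 to 0.56 for *Incenp*, -0.67 to 0.27 for *Kif20a*, -1.72 to 0.052 for *Kif20b*, -0.38 to 0.20 for *Kif2c*, -0.67 to 0.23 for *Kif4*, -1.42 to 0.21 for *Mki67*, -0.70 to 0.22 for *Ncapd2*, -0.89 to 0.018 for *Ncaph*, -0.73 to 0.083 for *Ndc80*, -0.35 to 0.92 for *Nek2*, -0.72 to 0.15 for *Nuf2*, -0.74 to 0.075 for *Nusap1*, -0.66 to 0.78 for *Plk1*, -0.79 to 0.055 for *Plk4*, -0.71 to 0.44 for *Prc1*, -0.00302 to 0.76 for *Pttg1*, -0.059 to 1.16 for *Racgap1*, -1.85 to 0.46 for *Smc4*, -0.25 to 0.54 for *Tacc3*, -0.73 to 0.39 for *Tpx2* and -0.43 to 1.14 for *Ube2c*. The share of all tested genes that change sign in this way is not given here, and the cause of these changes was not tested.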
